A study of Mus musculus with 14 samples.

Results

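Genes of the smooth muscle contractile apparatus were followed in mouse mammary gland epithelial cells, by RNA-seq, for their expression during treatment with TGF-β and after knockdown of Etv4 and Etv5. The group consists of 10 genes, Acta2, Actg2, Tagln, Cnn1, Myl9, Tpm1, Tpm2, Cald1, Myh11 and Olfm2, out of 23284 genes listed for each library, and all 10 were matched by their symbol. They were selected on their levels with TGF-β in EpH4 cells and after knockdown in EpRas cells, where several of them were higher, and values from those comparisons are therefore given as a description without a test. EpH4 is an established line of mammary gland epithelial cells of the mouse, and EpRas is its derivative transformed with H-Ras. Both lines were left untreated or treated with TGF-β3 (1 ng/ml) for 48 h, with 2 libraries for each of these 4 groups. EpRas cells were in addition transfected with a negative control siRNA (siNC), with siEtv4_1 and siEtv5_1 together (pair 1), or with siEtv4_2 and siEtv5_2 together (pair 2), each without and with TGF-β, and each of these 6 conditions has 1 library. The lines were grown in different concentrations of serum, so effects of serum and of H-Ras cannot be told apart, and EpRas is represented by a single transformed line.

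In smooth muscle, force comes from myosin II pulling on thin filaments of actin. Acta2 and Actg2 encode the smooth muscle α- and γ-actins, Tpm1 and Tpm2 encode tropomyosins that lie along the filament, and Cald1 (caldesmon), Cnn1 (calponin) and Tagln (transgelin, SM22α) encode proteins that bind the filament and restrain or stabilise it. Myl9 encodes the regulatory light chain whose phosphorylation starts contraction, and Myh11 the smooth muscle myosin heavy chain, the marker most closely tied to differentiated smooth muscle. Olfm2 encodes a secreted glycoprotein of the olfactomedin family that has been linked to smooth muscle differentiation under TGF-β. Many of these genes are controlled by serum response factor (SRF), which binds the CArG box, and by its coactivators of the myocardin family. Myoepithelial cells of the mammary gland and myofibroblasts use the same apparatus, and TGF-β is a classical inducer of Acta2 in fibroblasts and epithelial cells. Tpm1, Tpm2 and Cald1 also make non-muscle isoforms, and the level of a gene given here covers all of its transcripts.

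Promoter sequences from RefSeq (GRCm38.p6) were found for 7 of the 10 genes, Acta2, Cald1, Cnn1, Myl9, Olfm2, Tpm1 and Tpm2. Each window holds the 250 bases before the annotated start. The CArG box was looked for by its consensus, together with the letters CAGAC (a Smad-binding element), CCGGAA (an ETS core), TGANTCA (an AP-1 site) and CATTCC (a TEAD site), on both strands. A CArG-like element, in which 1 base of the A and T core is G or C, was added after the sequences had been read. The promoters of the smooth muscle actin gene Acta2 and of the light chain gene Myl9 are shown because they hold the CArG-type elements found among the members, and that of Olfm2 because it was the member with the largest response in EpH4 cells. Capitals mark the elements, and all sequences are written 5′ to 3′ on the strand of the gene.
Acta2, chr19:34255374-34255623, minus strand: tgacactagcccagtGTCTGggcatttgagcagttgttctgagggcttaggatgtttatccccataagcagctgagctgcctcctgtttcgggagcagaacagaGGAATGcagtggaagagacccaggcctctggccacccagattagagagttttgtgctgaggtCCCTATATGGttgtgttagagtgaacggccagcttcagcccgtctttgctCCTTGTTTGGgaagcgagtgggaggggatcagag
Myl9, chr2:156775214-156775463, plus strand: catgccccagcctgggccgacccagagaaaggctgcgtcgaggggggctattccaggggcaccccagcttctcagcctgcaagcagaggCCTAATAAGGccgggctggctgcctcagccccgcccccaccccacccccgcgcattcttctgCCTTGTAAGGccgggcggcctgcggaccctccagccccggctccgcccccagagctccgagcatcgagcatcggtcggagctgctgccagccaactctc
Olfm2, chr9:20728230-20728479, minus strand: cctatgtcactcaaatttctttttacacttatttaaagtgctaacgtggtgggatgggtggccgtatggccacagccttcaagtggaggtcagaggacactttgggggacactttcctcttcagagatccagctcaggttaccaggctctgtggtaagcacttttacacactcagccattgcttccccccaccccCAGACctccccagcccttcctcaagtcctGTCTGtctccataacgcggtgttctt

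The Myl9 window holds a CArG box, CCTAATAAGG, that begins 161 bases before the start, and a CArG-like element, CCTTGTAAGG, that begins 99 bases before it. Among 32851 promoter windows of the same length, 1.47% hold a CArG box and 7.24% a CArG-like element. The Acta2 window holds the CArG-like elements CCCTATATGG and CCTTGTTTGG, which begin 84 and 34 bases before the start, and no match to the full consensus. It also holds the letters CATTCC and CAGAC on the opposite strand, which read GGAATG and GTCTG here and are found in 12.6% and 42.2% of all windows. In the window of Olfm2 that lies next to the deposited start of the gene, CAGAC occurred on each strand. The other matches among the members were CATTCC in Tpm1, TGANTCA in the Cald1 window next to its deposited start (6.75% of all windows hold it), CAGAC and CATTCC in another Cald1 window and CAGAC in another Olfm2 window. CCGGAA (12.03% of all windows) was found in none of the 10 windows of these 7 genes. GENCODE, the annotation used for gene positions below, places the start of Acta2 and of Myl9 inside the windows shown, and that of Olfm2 in another of its windows, which is not shown.

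By their position (mm10, GENCODE), the 10 members lie on 6 chromosomes, and 4 are on chromosome 9, Tagln (chr9:45929619-45936058), Cnn1 (chr9:22099216-22109630), Tpm1 (chr9:67022590-67049406) and Olfm2 (chr9:20667690-20746349). Olfm2 and Cnn1 are the closest of these, and their profiles differed, since Cnn1 had no read in treated EpH4 cells. Acta2 is at chr19:34241090-34255590, Actg2 at chr6:83512905-83536265, Cald1 at chr6:34598500-34775473, Myl9 at chr2:156775420-156781658, Tpm2 at chr4:43514711-43523765 and Myh11 at chr16:14194535-14291372. The loci deposited for Tagln (chr9:45863691-45936058) and Cnn1 (chr9:22055460-22389206) are wider than these genes.

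Expression levels were deposited as FPKM, a read count scaled by transcript length and by the size of the library, with the untransfected and the siRNA-transfected libraries in separate tables. The depth of a library was not stated, and relative to the first library of untreated EpH4 cells it lay between 0.609 and 1.36 in the untransfected and between 1.26 and 2.201 in the siRNA libraries. For 7 members, Acta2, Actg2, Tagln, Cnn1, Myl9, Myh11 and Olfm2, the FPKM were whole multiples of the value of 1 read, so the reads behind each value are known. Intervals given for a ratio of reads are exact 95% intervals and cover counting error only. A maximum of at least 5 FPKM over the libraries, the filter used for tests, was reached by 5 members in the untransfected table (Acta2, Tpm1, Tpm2, Cald1 and Olfm2) and by 7 in the siRNA table (Acta2, Actg2, Tagln, Myl9, Tpm1, Tpm2 and Cald1). Acta2 and Olfm2 passed it in the untransfected table only through TGF-β-treated EpH4 cells. Cnn1 and Myh11 passed it in neither table.

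The labelled cell type, mammary gland epithelium, was checked with markers. The luminal keratin and junction genes (7 listed) summed to between 1818 and 4987 FPKM in the untransfected libraries and between 3079 and 4753 FPKM in the siRNA libraries. The 4 endothelial markers summed to at most 0.481 FPKM in the untransfected libraries, nearly all of it Cdh5 with TGF-β, with Pecam1 and Tek at 0. Of the 3 leukocyte markers listed, Ptprc was at 0 and Cd3e at most 0.305 FPKM, while Cd68, a lysosomal protein gene of macrophages, lay between 0.293 and 7.13 FPKM. The 6 markers of pericytes and vascular smooth muscle summed to at most 1.33 FPKM there, and the fibroblast markers Thy1, Lum and Fap were listed at 0. With TGF-β in EpH4 cells, the sum of the 9 fibroblast markers was 222 to 247 FPKM against 22.7 to 26.8 FPKM without. Most of it was the collagen gene Col1a1 (mean 212 FPKM with TGF-β). Mean levels of Col1a2 (2.95 FPKM without and 12.8 FPKM with TGF-β) and Pdgfrb (0.952 and 7.73 FPKM) were higher as well. So were those of Pdgfra (0.827 and 2.17 FPKM) and Col3a1 (0.0159 and 0.169 FPKM), while Dcn was at 0 in both groups. The sum of the 6 myoepithelial markers in EpH4 cells was 822 to 890 FPKM with TGF-β against 351 to 413 FPKM without, most of it Krt14 (784 to 851 FPKM with TGF-β). Krt17 was at 17.0 to 18.6 FPKM without and 32.7 to 34.6 FPKM with TGF-β there, Trp63 at 7.37 to 8.60 and 4.64 to 5.52 FPKM, and the other 3 of the list, Krt5, Oxtr and Cdh3, did not exceed 0.0856 FPKM. These sums moved with the contractile genes in EpH4 cells, and their part in the results was not tested. In bulk RNA, a larger share of cells expressing a gene and more RNA per cell cannot be told apart.

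In untreated EpH4 cells, the contractile genes fell into very different ranges. Tpm1 stood at 549 and 545 FPKM, Cald1 at 122 and 156 FPKM and Tpm2 at 115 and 98.3 FPKM in the 2 libraries. All other members were below 1 FPKM. Acta2 was at 0.108 and 0.636 FPKM (1 and 8 reads), Olfm2 at 0.386 and 0.949 FPKM (3 and 10 reads), Tagln at 0.123 and 0.181 FPKM (1 and 2 reads), and Actg2 and Myl9 had no reads, where 3 reads would stand for 0.459 FPKM of Actg2 in the first library. The tropomyosins and caldesmon, which have non-muscle isoforms, were thus the abundant members of the group before any treatment.

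With TGF-β, Acta2 in EpH4 cells stood at 8.22 and 8.64 FPKM, from 55 and 86 reads, which made the mean 22.7 times that of untreated cells (ratio of reads 20.6, 95% interval 10.5 to 45.9). Olfm2 was at 35.8 and 35.7 FPKM, 53.6 times the untreated mean, and had the largest difference of the group, 4.48 on the log2(FPKM + 1) scale used throughout. Myl9 was at 4.01 and 1.62 FPKM (15 and 9 reads) with no read in untreated cells, at least 10.5-fold higher when 3 reads over the untreated group are taken as the floor. The libraries with and without TGF-β did not overlap for any of these genes.
The abundant members differed by smaller factors. Tpm2 was at 263 and 257 FPKM with TGF-β, 2.44 times the untreated mean, Cald1 at 222 and 223 FPKM (1.60 times) and Tpm1 at 803 and 741 FPKM (1.41 times), again with no overlap between the groups. Tagln, at 0.682 and 0.573 FPKM with TGF-β, had 9 reads against 3 without, and the interval of that ratio (0.982 to 22.6) includes 1. Actg2 had 1 read in the treated group, and Cnn1 and Myh11 had none, against 3 and 5 reads in untreated cells. Over all genes tested, limma (adjusted p under 0.05) called 6.48% higher and 2.91% lower with TGF-β in EpH4 cells, and 30.2% had both treated libraries above both untreated ones. These shares are given as background, since this contrast was used to choose the members.

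**Figure D1:**
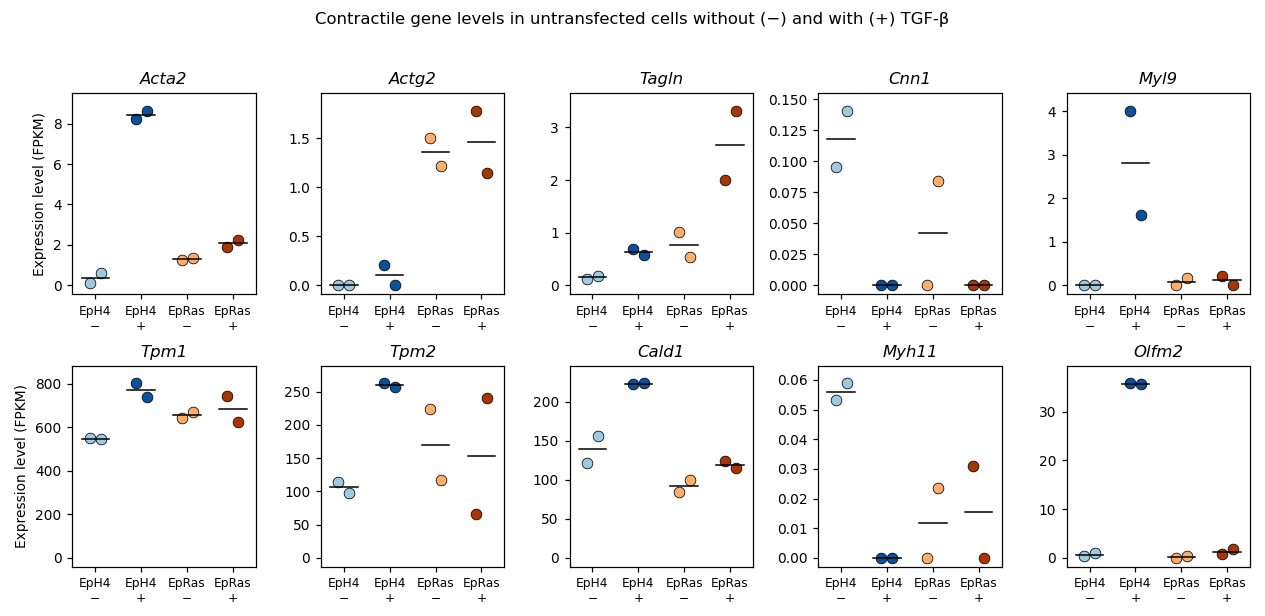
Expression level (FPKM, a separate linear axis for each gene) of the 10 contractile genes in untransfected EpH4 and EpRas cells without (−) and with (+) TGF-β for 48 h. Points are libraries (2 per group) and lines are group means. Acta2, Myl9 and Olfm2 are high in treated EpH4 cells alone, Actg2 and Tagln are highest in EpRas cells, and Cnn1 and Myh11 stay below 0.15 FPKM.

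In untransfected EpRas cells, whose libraries were not used to choose the members, TGF-β was tested for Tpm1, Tpm2 and Cald1, the members that reached the filter in EpRas libraries. Limma called 0 of these 3 (adjusted p under 0.05, where 1.9% of all genes tested were called higher and 1.92% lower), 0 had an unadjusted p under 0.05, and the Tukey-Kramer test on FPKM also called 0. Acta2 and Olfm2 reached the filter through treated EpH4 cells alone and are given by their levels, their reads and a limma fit without a filter. That fit called neither Acta2 (0.43 ± 0.19, adjusted p = 0.388) nor Olfm2 (0.92 ± 0.28, adjusted p = 0.195). Olfm2 was at 0 and 0.341 FPKM without and 0.750 and 1.74 FPKM with TGF-β, and its 3 and 14 reads give a ratio of 5.33 (interval 1.49 to 28.9). Acta2 was at 1.24 and 1.33 FPKM without and 1.89 and 2.26 FPKM with TGF-β. Its groups did not overlap, and the interval of its ratio of reads, 1.58 (0.869 to 2.91), includes 1. Cald1 was at 84.6 and 99.9 FPKM without and 124 and 115 FPKM with TGF-β (difference 0.37 ± 0.18, limma adjusted p = 0.369). Of the 5 members that passed the filter, the lowest treated value exceeded the highest untreated one for Acta2, Cald1 and Olfm2, as for 18.5% of all genes tested. The same order held for Tagln, which did not pass it.
The tropomyosin genes overlapped between the groups. Tpm1 was at 644 and 669 FPKM without and at 746 and 624 FPKM with TGF-β (difference 0.06 ± 0.15, limma adjusted p = 0.907). Tpm2 was at 224 and 117 FPKM without and at 66.0 and 240 FPKM with TGF-β (difference -0.36 ± 0.56, limma adjusted p = 0.823), and its replicates were thus further apart than its group means. Without the first treated library the difference for Tpm2 was 0.56, and without the first untreated library it was 0.11. That for Tpm1 was -0.073 without the first treated library. Of the members below the filter, Tagln was at 1.01 and 0.543 FPKM without and 2.01 and 3.32 FPKM with TGF-β. Its 10 and 32 reads give a ratio of 3.66 (1.75 to 8.34), an interval that covers counting error only. The limma fit without a filter did not call Tagln (1.03 ± 0.21, adjusted p = 0.0739). Actg2 was at 1.51 and 1.21 FPKM without and 1.78 and 1.15 FPKM with TGF-β, with 15 reads in each group. Myl9, Cnn1 and Myh11 had at most 1 read in any EpRas library of this table.

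Without TGF-β, EpRas cells were compared with EpH4 cells. The untreated EpH4 libraries were also part of the contrast that chose the members, so the members' values are a description without a test. Acta2 was at 1.24 and 1.33 FPKM in EpRas cells against 0.108 and 0.636 FPKM in EpH4 cells, which is 21 reads against 9 (ratio 3.15, interval 1.39 to 7.82). Actg2 had 6 and 9 reads in EpRas cells and none in EpH4 cells, at least 6.76-fold more when 3 reads over the EpH4 group are taken as the floor. Tagln had 10 reads against 3 (ratio 4.51, interval 1.16 to 25.5). The actin genes and Tagln thus had more reads in EpRas cells, although all 3 stayed below 2 FPKM there.
Cald1 was lower in both EpRas libraries than in either EpH4 library (84.6 and 99.9 against 122 and 156 FPKM, difference -0.58). Olfm2 had 3 reads against 13, and the interval of that ratio (0.312, 0.0570 to 1.14) includes 1. For Cald1 and Olfm2 the highest EpRas value lay under the lowest EpH4 value, as for 30.4% of all genes tested, and for Acta2, Tpm1 and Tpm2 the order was the reverse, as for 30.6%.
Cell type markers also differed between the untreated lines, where limma called 8.45% of all genes tested higher and 9.11% lower in EpRas cells. All 3 myoepithelial markers tested were lower, Krt14 (-1.69 ± 0.16, limma adjusted p = 0.000545), Krt17 (-4.02 ± 0.18) and Trp63 (-3.03 ± 0.17). Of the 7 luminal markers Cdh1, Cldn3 and Cldn4 were lower and Krt19 was higher, and of the 3 fibroblast markers tested Col1a1 and Col1a2 were lower and Pdgfrb was higher. Krt17, Trp63, Col1a1 and Col1a2 reached the filter in EpH4 libraries only, and Krt19 in EpRas libraries only, so their differences are a description. The calls for Cldn3 and Cldn4 each held in 11 of 15 other limma fits, and those for the other 8 called markers in all that tested them. The sum of the 6 myoepithelial markers was 103 to 116 FPKM in EpRas cells, that of the luminal markers 2390 to 3234 FPKM against 3056 to 3552 FPKM in EpH4 cells, and that of the fibroblast markers 12.3 to 13.6 FPKM. With TGF-β in EpRas cells 1 marker was called, Krt14, which was lower (-0.78 ± 0.16, limma adjusted p = 0.042, held in 4 of 15 other fits). The part of these differences in the levels of the contractile genes was not tested.

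With TGF-β, the order of the lines depended on the gene. These libraries include the treated EpH4 cells used for the choice, so the values are a description. Acta2 in EpRas cells was at 0.246 of the EpH4 mean, Olfm2 at 0.0347 and Cald1 at 0.536, and for Acta2, Olfm2, Cald1 and Tpm2 the EpRas libraries did not reach either EpH4 library, as was the case for 32.7% of all genes, while the reverse held for 30.2%. Myl9 had 1 read against 24. Tagln and Actg2 had the opposite order, with 32 reads against 9 for Tagln (ratio 4.19, interval 1.95 to 9.97) and 15 against 1 for Actg2 (17.7, 2.72 to 743).

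Knockdown was checked first in the siRNA libraries. For Etv4, the level in siNC cells was 57.4 FPKM, and pair 1 left 11.6 FPKM (20.2% of siNC) and pair 2 left 27.9 FPKM (48.5%) when TGF-β was absent. In its presence the values were 64.3, 12.6 (19.6%) and 18.9 FPKM (29.4%) in the same order. For Etv5 they were 8.85, 1.61 (18.3%) and 1.26 FPKM (14.2%) without and at 5.34, 1.24 (23.2%) and 1.203 FPKM (22.5%) with TGF-β. Both siRNA pairs thus left less of both transcripts than siNC, and pair 1 left less Etv4 than pair 2. The siNC libraries had lower levels of several members than those listed for untransfected EpRas cells in the other table, with Acta2 at 0.490 and 0.512 against 1.24 to 2.26 FPKM, Actg2 at 0 and 0.0695 against 1.15 to 1.78 FPKM and Tpm1 at 310.4 and 392 against 624 to 746 FPKM. The tables were normalised separately, and this difference was not tested. With 1 library per condition the differences below have no replicate check, and a difference of at least 1 log2 unit is used as the threshold for counts.

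The actin genes had the largest differences of the group from siNC with pair 1 in both conditions and with pair 2 under TGF-β. With pair 2 without TGF-β, the largest was that of Tpm1 (0.87). In untreated cells, Acta2 had 6 reads (0.512 FPKM) in the siNC library, 373 reads (23.4 FPKM) after pair 1 and 3 reads (0.201 FPKM) after pair 2. In treated cells it had 10 reads (0.490 FPKM), 3265 reads (202 FPKM) and 191 reads (13.2 FPKM). Pair 1 was thus far above siNC in both conditions, by a ratio of 45.8 without (interval 20.8 to 126) and 412 with TGF-β (224 to 860), whereas the ratio for pair 2 was 0.393 without (0.0636 to 1.84) and 26.9 with TGF-β (14.3 to 57.0). These intervals describe single libraries and do not test the siRNAs.
Actg2 was likewise highest with pair 1. It had no read with siNC, 148 reads (13.2 FPKM) with pair 1 and 2 reads (0.190 FPKM) with pair 2 without TGF-β, and 1, 636 (55.7 FPKM) and 100 reads (9.78 FPKM) with TGF-β. Pair 1 was at least 36.3-fold above siNC without TGF-β, with 3 reads in the siNC library as the floor. With TGF-β the ratios to the 1 read of siNC were 803 (144 to 31748) for pair 1 and 141 (24.7 to 5614) for pair 2. In transcripts of GENCODE, no stretch of 50 bases is shared between Acta2 and Actg2, and 7 of 2146 such stretches of Acta2 (0.326%) are shared with Actg1. Whether reads were exchanged among the actin genes was not tested.

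Among the proteins that bind the filament, Tagln had 7 reads (0.681 FPKM) in untreated siNC cells, 55 (3.94 FPKM) after pair 1 and 6 (0.459 FPKM) after pair 2. With TGF-β it was at 0.838 (15 reads), 47.9 (680 reads) and 9.28 FPKM (118 reads), which is 57.2 times siNC for pair 1 (34.4 to 103) and 11.1 times for pair 2 (6.45 to 20.4). Cald1 stood at 61.9, 124 and 86.1 FPKM (siNC, pair 1 and pair 2) in untreated cells and at 96.9, 257 and 134 FPKM in treated cells, so that the ratios to siNC were 2.01 and 1.39 without and 2.65 and 1.38 with TGF-β. Cnn1 stayed at or below 0.383 FPKM (7 reads, pair 1 with TGF-β) in all 6 libraries.
Of the tropomyosin genes, Tpm1 was at 310.4, 1000.3 and 568 FPKM without and at 392, 1722 and 1071 FPKM with TGF-β, above siNC with both pairs in both conditions (ratios 3.22 and 1.83 without, 4.40 and 2.73 with TGF-β). Tpm2 was at 172, 217 and 99.0 FPKM without and at 210.4, 481 and 249 FPKM with TGF-β. It was thus above siNC with pair 1 and below it with pair 2 when TGF-β was absent, and 2.28 and 1.19 times siNC when it was present.
Of the myosin subunits, Myl9 had 0, 23 and 0 reads (2.59 FPKM for pair 1) without and 0, 82 and 2 reads (9.08 FPKM for pair 1) with TGF-β, and pair 1 was at least 5.64-fold and 34.5-fold above siNC with 3 reads in the siNC library as the floor. Myh11 did not exceed 0.0993 FPKM (6 reads) in any siRNA library. Olfm2 had 0, 3 and 3 reads without and 5, 14 and 25 reads with TGF-β, and it was the 1 member that was higher with pair 2 than with pair 1 under TGF-β (2.06 against 1.03 FPKM, ratio of reads of pair 1 to pair 2 0.502, with an interval from 0.241 that includes 1).

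Counted over the 7 members that passed the filter in this table, 5 were higher by at least 1 log2 unit with pair 1 without TGF-β (Acta2, Actg2, Tagln, Myl9 and Tpm1) and 0 with pair 2, where 3.34% and 3.86% of the 9094 genes tested were. With TGF-β, all 7 were higher with pair 1 and 4 with pair 2 (Acta2, Actg2, Tagln and Tpm1), against 3.41% and 2.88% of all genes. In both pairs at once, the count was 0 without TGF-β (1.54% of all genes) and 4 with TGF-β (1.33% of all genes). The rule used these libraries, and Acta2, Actg2, Tagln and Myl9 reached the filter in this table only through knockdown libraries, so nothing is read from these counts. Pair 1 exceeded pair 2 by at least 1 log2 unit in 5 of the 7 without TGF-β (Acta2, Actg2, Tagln, Myl9 and Tpm2) and in 4 with it (Acta2, Actg2, Tagln and Myl9), where 2.05% and 1.86% of all genes did. Under TGF-β the ratio of pair 1 to pair 2 was 15.3 for Acta2 (13.2 to 17.8), 5.70 for Actg2 (4.61 to 7.11) and 5.17 for Tagln (4.24 to 6.34). The lower level of Etv4 left by pair 1 moved with these differences, and its part in them was not tested.

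**Figure D2:**
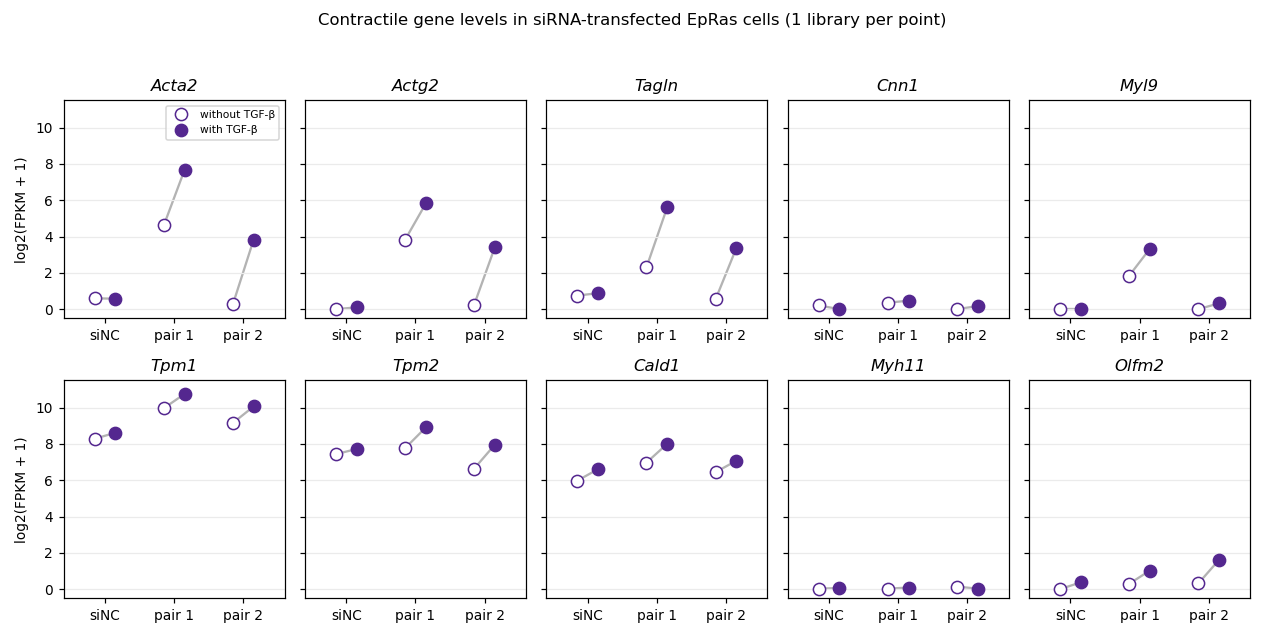
Levels of the 10 contractile genes, as log2(FPKM + 1) on a common axis, in EpRas cells transfected with siNC, siRNA pair 1 or siRNA pair 2 against Etv4 and Etv5. Each point is 1 library, open without and filled with TGF-β. For Acta2, Actg2 and Tagln the siNC points stay below 1 and both pairs are above siNC with TGF-β, while pair 2 without TGF-β is within 0.33 of siNC.

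**Figure D3:**
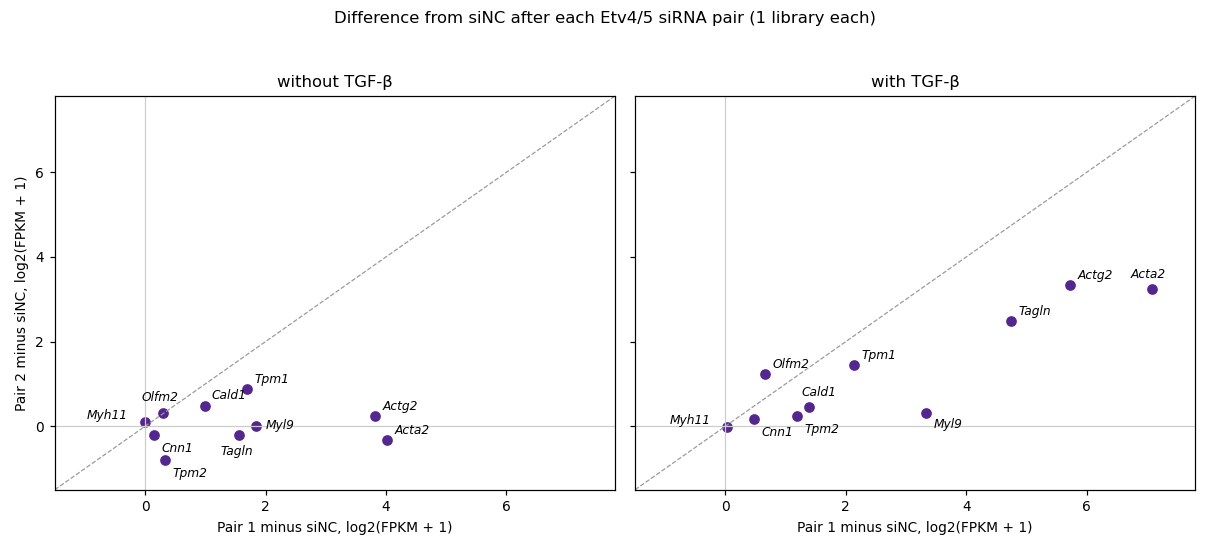
Difference from siNC, on the log2(FPKM + 1) scale, for pair 1 (horizontal) and pair 2 (vertical), without (left) and with TGF-β (right). Each point is 1 gene and the dashed line marks equal differences. Without TGF-β the points spread along the horizontal axis, and with TGF-β Acta2, Actg2, Tagln and Tpm1 lie above 1 on both axes, below the dashed line.

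The response to TGF-β itself was set side by side for the transfections. The counts are again a description from which nothing is read, since the knockdown libraries chose the members and Acta2, Actg2, Tagln and Myl9 reached the filter only through them. With siNC, 0 of the 7 members were higher by at least 1 log2 unit with TGF-β (3.23% of all genes were), and the differences ran from -0.02 for Acta2 to 0.64 for Cald1. With pair 1, 6 of the 7 were (3.67% of all genes), all but Tpm1 (0.78). With pair 2, 4 were, Acta2, Actg2, Tagln and Tpm2 (4.08% of all genes), and these 4 were higher in both pairs (2.31% of all genes). Acta2 was 8.62 times higher with than without TGF-β after pair 1 (7.74 to 9.62) and 65.5 times higher after pair 2 (22.1 to 320), where the untreated library has 3 reads, against a ratio of 0.958 with siNC (0.315 to 3.21). Actg2 was 4.23 times higher after pair 1 (3.53 to 5.10) and 51.4 times after pair 2 (13.9 to 431). Tagln was 12.2 (9.24 to 16.3) and 20.2 times higher (9.02 to 56.3), against 1.23 with siNC (0.473 to 3.57). Myl9 was 3.51 times higher after pair 1 (2.19 to 5.85). Each pair was compared with its own untreated library, and the pairs share no library in these ratios.
Set beside the untransfected cells, the differences with TGF-β for Acta2 were 2.81 in EpH4, 0.43 in EpRas, -0.02 with siNC, 3.05 with pair 1 and 3.56 with pair 2. Tpm2 had 1.28 in EpH4, -0.36 in EpRas, 0.29 with siNC, 1.15 with pair 1 and 1.32 with pair 2. The other members had other profiles. Olfm2 had 4.48 in EpH4 but 0.73 and 1.30 with the pairs, and Actg2 had 0.14 in EpH4 but 2.00 and 3.18 with the pairs. Tagln likewise had 0.50 in EpH4 and 3.31 and 2.82 with the pairs. Cald1 had 0.69 in EpH4, 0.37 in EpRas, 0.64 with siNC, 1.04 with pair 1 and 0.63 with pair 2. Myl9 had 1.86 in EpH4, 1.49 with pair 1 and 0.32 with pair 2, and Tpm1 had 0.50, 0.78 and 0.91 in the same order and 0.33 with siNC.

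**Figure D4:**
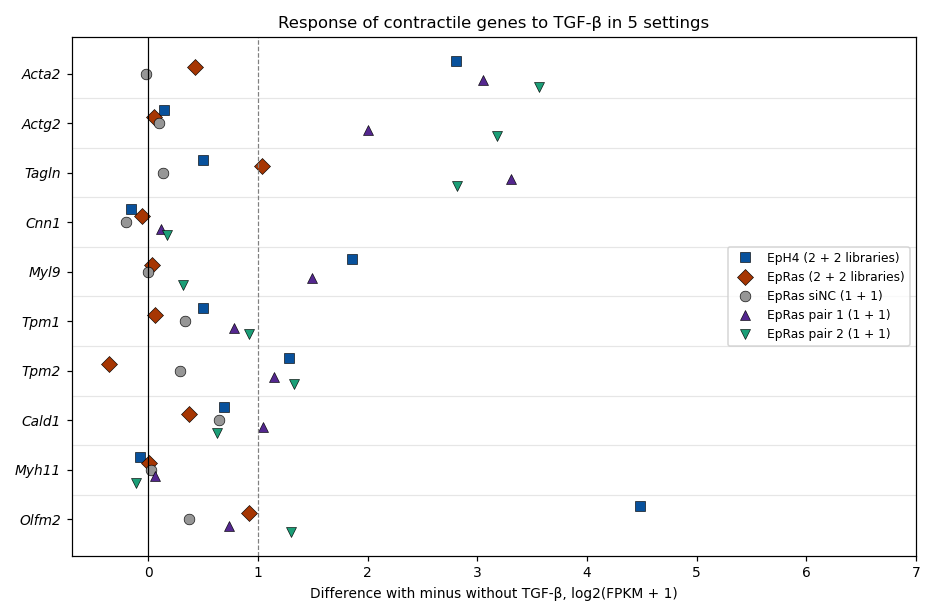
Difference between cells with and without TGF-β, in log2(FPKM + 1), for each contractile gene in 5 settings, namely untransfected EpH4 and EpRas cells (means of 2 libraries per group) and EpRas cells with siNC, pair 1 or pair 2 (1 library each). The dashed line marks 1 log2 unit. Untransfected EpRas and siNC points lie near or below this line for every gene, while EpH4, pair 1 and pair 2 points reach 2.81 to 3.56 for Acta2.

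Tpm1 was the most highly expressed member in all 14 libraries. The levels of Acta2 in its high conditions ranged from 8.22 FPKM in treated EpH4 cells to 202 FPKM in treated pair 1 cells, where Cald1 was at 257 FPKM. Likeness to Acta2 was measured by Pearson's r of log2(FPKM + 1) over the 14 libraries, each table centred on its own mean, and is given as a description, since the libraries include the ones used for the choice. Of the members, Tpm1 (0.91), Myl9 (0.90), Tagln (0.85), Actg2 (0.85) and Cald1 (0.83) were closest, followed by Tpm2 (0.70), Cnn1 (0.61), Olfm2 (0.48) and Myh11 (-0.29). Among 8681 genes that reached 5 FPKM in both tables, those outside the group with the highest r were Csrp1 (0.95), which encodes a LIM protein of the actin cytoskeleton, Tpm4 (0.93), a non-muscle tropomyosin gene, Msrb3 (0.93), a methionine sulfoxide reductase gene, Myl12a (0.92), the gene of a widely expressed regulatory light chain, and Mfsd2a (0.91), a lipid transporter gene. Csrp1 was at 55.5 and 63.6 FPKM in untreated and 153 and 152 FPKM in treated EpH4 cells, and at 74.7, 184 and 64.4 FPKM without and 95.7, 440 and 194 FPKM with TGF-β in the siRNA libraries (siNC, pair 1 and pair 2).

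Other genes of the contractile apparatus were examined as lists. Of 24 other contractile genes, 13 passed the filter in the untransfected table, and 1 of them, Csrp1, was higher with TGF-β in EpRas cells (73.9 to 84.1 against 127 to 139 FPKM, 0.75 ± 0.15, limma adjusted p = 0.0458) and 0 were lower, where 1.9% and 1.92% of all genes tested were. The median of the 13 was 0.18, against -0.02 over all genes tested. The call for Csrp1 held in 4 of 15 other limma fits, with adjusted p up to 0.249, and the direction was the same in all 15. Between the lines without TGF-β, 0 were higher and 3 were lower in EpRas cells (8.45% and 9.11% of all genes tested). These were Myh10, a non-muscle myosin heavy chain (-0.97 ± 0.16, limma adjusted p = 0.00706), Ppp1r12b, a subunit of myosin phosphatase (-0.76 ± 0.20, adjusted p = 0.0372), and Fhl1, a LIM protein of muscle. Fhl1 was at 4.74 to 7.54 FPKM in EpH4 and 1.70 to 2.90 FPKM in EpRas cells. It reached the filter only through 1 untreated EpH4 library, so nothing is read from its call or from the count of 3. The call for Myh10 held in all 15 other limma fits and that for Ppp1r12b in 8 of 15 (adjusted p up to 0.182). In the siRNA libraries Fhl1 was at 0.254, 11.96 and 0.0997 FPKM without and at 0.182, 39.1 and 2.69 FPKM with TGF-β (siNC, pair 1 and pair 2). Of the late smooth muscle genes on this list, the myosin light chain kinase gene Mylk lay between 0.235 and 1.72 FPKM over the 14 libraries, with 0.282 FPKM in treated pair 1 cells, and Des, the gene of the muscle intermediate filament desmin, reached 1.804 FPKM in treated pair 1 cells, its highest level.
The 7 non-muscle relatives of the members (Actb, Actg1, Tpm3, Tpm4, Cnn2, Cnn3 and Tagln2) were abundant in all libraries, and limma called 0 of them in either tested comparison, with a median of 0.17 for TGF-β in EpRas cells. The most highly expressed of them, Actb, was at 1375 to 1954 FPKM in untreated EpRas cells, and Tagln2 at 439 to 452 FPKM. With pair 1 and TGF-β, 4 of the 7 (Actb, Actg1, Tpm4 and Cnn2) were at least 1 log2 unit above siNC, as were 3.41% of all genes, and with pair 2 it was 0 of the 7 (2.88% of all genes), with a highest difference of 0.92. Of 13 genes of stress fibres and their anchors, 12 were tested in EpRas cells and 1, Palld (palladin), was higher with TGF-β (0.88 ± 0.14, limma adjusted p = 0.0177), a call that held in 8 of 15 other limma fits with adjusted p up to 0.164, and 0 were lower (1.9% and 1.92% of all genes). Between the untreated lines, 4 were higher in EpRas cells, Vim (9.13 ± 0.24), Vcl, which encodes vinculin (0.85 ± 0.17, limma adjusted p = 0.016), Flna, which encodes filamin A (0.85 ± 0.16, adjusted p = 0.0107), and Fblim1, and 0 were lower (8.45% and 9.11% of all genes). Vim reached the filter in EpRas libraries only, so its difference is a description and nothing is read from its part in this count. In 15 other limma fits the call for Vim held in all, that for Flna in 13 and those for Vcl and Fblim1 in 11. In the siRNA libraries with TGF-β, 2 of 13 (Flna and Lpp) were at least 1 log2 unit above siNC with pair 1 and 0 with pair 2 (3.41% and 2.88% of all genes). Lpp reached the filter only through the treated pair 1 library (8.67 FPKM), so nothing is read from its part in this count.

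Of 14 regulators of smooth muscle transcription, Myocd, the gene of myocardin, and Gata6 were listed at 0 in all 14 libraries. Mkl1, a myocardin-related coactivator of SRF, was higher with TGF-β in EpRas cells (22.3 to 28.1 against 42.0 to 54.4 FPKM, 0.91 ± 0.18, limma adjusted p = 0.043), and Klf4, a repressor of smooth muscle genes, was lower (26.3 to 28.1 against 6.003 to 10.3 FPKM, -1.66 ± 0.23, adjusted p = 0.00983), 1 higher and 1 lower of 10 tested (1.9% and 1.92% of all genes). In 15 other limma fits the call for Mkl1 held in 4 and that for Klf4 in 12. Without TGF-β, Klf4 was higher in EpRas than in EpH4 cells (0.88 ± 0.23, limma adjusted p = 0.0404), and Elk1, a partner of SRF (-0.89 ± 0.18, adjusted p = 0.0151), and Prrx1, a homeobox gene of mesenchyme (-0.77 ± 0.16, adjusted p = 0.0173), were lower. That is 1 higher and 2 lower of 10 tested, where 8.45% and 9.11% of all genes were. In other limma fits this call for Klf4 held in 6 of 15 (adjusted p up to 0.171), that for Elk1 in 11 of 14 and that for Prrx1 in 11 of 15. Klf4 in the siRNA libraries stood at 24.4, 26.2 and 44.6 FPKM (siNC, pair 1 and pair 2) in untreated cells, and at 13.5, 8.001 and 8.96 FPKM with TGF-β. Srf itself was at 34.2, 40.3 and 38.6 FPKM without and at 29.5, 56.7 and 66.4 FPKM with TGF-β in these libraries. The level of Mkl1 with TGF-β was 52.85, 49.2 and 65.9 FPKM for siNC, pair 1 and pair 2.
Among 19 genes of striated muscle, 4 passed the filter. Limma called 2 of them, Acta1 and Tnnt2, higher with TGF-β in EpRas cells, where 1.9% of all genes tested were. Acta1, the skeletal muscle actin gene, reached the filter only through a treated EpRas library, so nothing is read from its call or from this count. It was at 0.454 to 0.732 FPKM without and 4.03 to 6.22 FPKM with TGF-β. Tnnt2, the cardiac troponin T gene, was at 147 to 204 against 579 to 680 FPKM (1.85 ± 0.24, limma adjusted p = 0.00622). Acta1 was at 0.656, 7.16 and 0.516 FPKM without and at 1.13, 68.3 and 39.4 FPKM with TGF-β in the siRNA libraries, and was highest with pair 1 in both conditions, as Acta2 was. Tnnt2 was at 108, 118 and 221 FPKM without and at 676, 660 and 861 FPKM with TGF-β. Its level with siNC was thus higher with TGF-β than without, unlike that of Acta2. In 15 other limma fits the call for Tnnt2 held in 14. Between the untreated lines, 1 of the 4, Tnnt2, was higher in EpRas cells (1.03 ± 0.24, limma adjusted p = 0.0248) and 0 were lower (8.45% and 9.11% of all genes). This call held in 11 of 15 other limma fits. Of 50-base stretches of Acta1, 1.83% are shared with Actb and 0 with Acta2.

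The sum of the 9 fibroblast markers in the siRNA libraries was 5.50, 25.7 and 16.6 FPKM without and 11.7, 43.9 and 22.4 FPKM with TGF-β (siNC, pair 1 and pair 2), including 27.7 FPKM of Col1a1 and 10.1 FPKM of Pdgfrb in treated pair 1 cells, with 4 of the 9 at 0 in treated cells of each transfection (Thy1, Lum, Fap and Dcn). Pdgfra of the same list was at 3.21, 1.76 and 3.67 FPKM without and 6.79, 2.33 and 3.86 FPKM with TGF-β, thus lower with both pairs than with siNC under TGF-β. The sum of the myoepithelial markers was 110, 237 and 365 FPKM without and 152, 218 and 247 FPKM with TGF-β. The sum, and so Krt14, was higher with pair 2 than with pair 1 in both conditions, the opposite order from Acta2. Trp63, at most 0.285 FPKM, had the same order of the pairs as the sum. Krt17 and Cdh3 were lower with both pairs than with siNC in both conditions, unlike the sum. Between the pairs, Krt17 and Cdh3 were higher with pair 1 in both conditions. Krt5 was at 0 in the treated libraries of both pairs. The 6 markers of pericytes and vascular smooth muscle summed to 1.56, 2.28 and 1.94 FPKM without and 0.922, 0.556 and 0.227 FPKM with TGF-β, and the 4 endothelial markers to 0.585, 0.0484 and 0.0347 FPKM without and 2.01, 0.0993 and 0.254 FPKM with TGF-β, most of the highest value being Cdh5 (1.80 FPKM in treated siNC cells). Cd68 lay between 2.18 and 6.52 FPKM. These sums moved with the knockdown, and their part in the levels of the contractile genes was not tested.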

How the data were processed

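RNA-seq (poly(A) RNA, Ion Proton, directional libraries) was analysed from 14 libraries. The authors aligned reads to mm10 with TopHat2 (2.0.11) and Bowtie2 (2.2.2.2) and deposited FPKM per gene from Cufflinks (2.2.0) and Cuffdiff, in separate tables for 8 untransfected and 6 siRNA libraries that were processed independently. No level was tested across the tables, and 0 columns of samples were left out.
From these values, log2(FPKM + 1) was fitted with limma 3.58.1 (R 4.3.3) over the 4 untransfected groups, 2 biological replicates each, for genes with a maximum of at least 5 FPKM (9100 genes), with Benjamini-Hochberg adjustment and a threshold of 0.05. The fit was tested on simulated data, where 146 of 197 genes changed by 1.5 log2 units between EpRas groups and 8 of 8324 unchanged genes were called. The siRNA libraries (9094 genes) have 1 library per condition and no test, and differences of at least 1 log2 unit are counted. The fit between the untreated lines was used as a test for genes outside the group only, since the members were chosen with the untreated EpH4 libraries. The p-values measure only the spread between these samples.
Whole reads were recovered for 7 members from the value of 1 read, with a largest distance from a whole number of 0.0181 reads (tolerance 0.06). Ratios of reads have exact Clopper-Pearson 95% intervals, and a group without reads was given a floor of 3 reads. Ratios of reads and the CArG-like element were added after the data had been examined.
The members and lists were chosen with earlier results of these data known. Named were all members, of each other list up to 4 called genes with the largest differences (otherwise the 2 most highly expressed), the 5 genes most like Acta2, and Etv4 and Etv5. Genes named from the lists beyond this rule (Srf, Myocd, Gata6, Mylk, Des, Col1a1, Pdgfrb and other markers) were chosen after their values were seen. Alternatives were pseudocounts of 0.1 and 5 FPKM, no filter, a mean of at least 10 FPKM, median scaling, a replicate block, only the 2 groups compared, the Tukey-Kramer test named in the study's methods, and leaving out each replicate. python 3.11.15, numpy 2.4.6, pandas 2.3.3 and scipy 1.17.1 were used.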

Additional observations from a re-analysis of the deposited data

Results flagged for a closer look

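In untreated EpRas cells the difference of Acta2 from siNC was 4.01 log2 units for pair 1 and -0.33 for pair 2. The signs differ, but pair 2 had 3 reads against 6 with siNC, and the interval of that ratio (0.393, 0.0636 to 1.84) includes 1. The same holds for Tagln (1.55 and -0.20), with 6 reads against 7 (0.674, 0.187 to 2.34). Tpm2 was at 0.33 and -0.79, with 1 library behind each value. For Acta2 the difference between cells with and without TGF-β was -0.021 with siNC, against 3.05 with pair 1 and 3.56 with pair 2. None of these differences between transfections was tested, since each condition has 1 library, and the low values of Acta2 and Tagln with siNC and untreated pair 2 rest on 3 to 15 reads.
Between the lines, both EpRas libraries were above both EpH4 libraries for Acta2 without TGF-β (0.76) and below them with TGF-β (-1.62). The order of Tpm2 turned in the same way, from 0.61 without to -1.04 with TGF-β. These changes of order were not tested, because the treated EpH4 libraries were used to choose the members.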

How the results depend on the processing

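Of 1152 values recomputed under the alternatives, 3 were counted as a change of direction, all for TGF-β in EpRas cells and none of them called. These were Tpm2, 0.11 without the first untreated EpRas library and 0.56 without the first treated one (range over all left-out libraries -1.28 to 0.56), and Tpm1, -0.073 without the first treated library (range -0.073 to 0.18). In comparisons without a test, a change of direction was counted only where the main difference was at least 1 log2 unit. In addition, 108 values lost their call and 1 gained it. Another 97 values, and 16 counts of members, moved by more than the limit set for them. Between the untreated lines, where the EpH4 libraries were also used to choose the members and the fit is no test of them, the count of members past the threshold and higher in EpRas cells, 1 (Acta2), was 0 with a pseudocount of 0.1 or 5 FPKM, with a mean of at least 10 FPKM (which removes Acta2), with only the 2 groups compared and by the Tukey-Kramer test, and 0 to 1 with a library left out. Without a filter it was 1, but Actg2 in place of Acta2. The count of lower members was 1 (Cald1) with a pseudocount of 5 FPKM. In the main fit, 8.45% of all genes tested were called higher and 9.11% lower. Acta2 reached the filter through treated EpH4 cells alone, so nothing is read from these counts. In the siRNA libraries without TGF-β, a pseudocount of 5 FPKM lowered the members higher with pair 1 from 5 to 3, against siNC as against pair 2, and one of 0.1 FPKM raised those higher with pair 2, and with both pairs, from 0 to 1. The cause of these changes was not tested. In the main setting, 3.34% of all genes were higher by this threshold with pair 1 than with siNC, and 2.05% than with pair 2. With pair 2 against siNC it was 3.86%, and with both pairs 1.54%. Acta2, Actg2, Tagln and Myl9 reached the filter there only through knockdown libraries, so nothing is read from these counts. Over all genes, the calls for TGF-β in EpRas cells (173 higher, 175 lower) were 30 and 15 with only the 2 groups compared, 125 and 100 with a mean of at least 10 FPKM, and 81 to 211 and 54 to 196 with a library left out. The calls between the untreated lines (769 and 829) were 436 and 444 with that mean, and 323 to 1021 and 398 to 1083 with a library left out. Median scaling moved the median of all genes by -0.024 to 0.023 log2 units. Members with few reads, such as Myl9 outside treated EpH4 and pair 1 cells, are limited by depth.
With the replicate block the count of members past the threshold between the untreated lines was 0, and all genes called for TGF-β in EpRas cells were 115 and 107. Same-numbered libraries had correlations of their deviations between -0.35 and 0.08, so the numbers were not taken to pair the samples. Under the block the calls of Csrp1, Mkl1, Palld, Krt14 in EpRas cells, Fhl1, Ppp1r12b and of Klf4 between the lines were also lost, and no other call of a list gene was.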
